A study of Homo sapiens with 2 samples.

Results

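The 14-3-3 genes are the 7 human genes YWHAZ, YWHAB, YWHAE, YWHAG, YWHAH, YWHAQ and SFN, which encode the zeta, beta, epsilon, gamma, eta, theta and sigma isoforms. Every peak assigned to one of them by gene symbol was taken from a deposited list of 6373 peaks, and there were 7 such peaks. Of these, 6 were assigned to YWHAZ, 1 to YWHAB and 0 to the other 5 genes. The list came from PLC/PRF/5, a human liver cancer cell line, after lentiviral overexpression of the zinc finger protein ZFP64. It sets 1 library of chromatin precipitated with a Flag antibody (the Flag ChIP) against 1 library of unprecipitated chromatin from cells with the same overexpression (the input). Neither library was replicated, and since no precipitation from untagged cells was used here, specific and nonspecific signal cannot be told apart at any peak. The family was chosen by the number of peaks assigned to YWHAZ in this list. The values below are therefore a description and were not tested.

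The 14-3-3 proteins are small acidic adaptors that work as homodimers or heterodimers. Each subunit of the dimer holds a groove that binds a phosphorylated serine or threonine in a client protein, and binding can hold a client in the cytoplasm, mask a site on it or stabilise it. The zeta isoform binds many kinases and their substrates and is often abundant in tumours, and the sigma isoform, also called stratifin, is made mainly in epithelial cells and is a known target of p53. ChIP followed by sequencing measures how much DNA of a site comes down with the antibody. It does not measure expression, and a peak is assigned to the gene with the nearest start, which says nothing of whether the site regulates it.

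The promoter sequences of YWHAB, YWHAG and SFN are printed as examples of a member with a promoter peak and of members without one. They are too few to compare promoters with and without a peak. Each is the 250 bases before the RefSeq start (GRCh38.p14), written 5′ to 3′ on the strand of the gene. Capitals mark the GC box, GGGCGG or its reverse complement CCGCCC, a sequence that Sp and Krüppel-like zinc finger proteins are known to bind. YWHAB, at chr20:44885455-44885704 on the plus strand, had a peak just after its start. YWHAG, at chr7:76358992-76359241 on the minus strand, had the same number of boxes and no promoter peak. SFN, at chr1:26862899-26863148 on the plus strand, had the fewest CpG dinucleotides of the 6 members with a promoter sequence here.
YWHAB: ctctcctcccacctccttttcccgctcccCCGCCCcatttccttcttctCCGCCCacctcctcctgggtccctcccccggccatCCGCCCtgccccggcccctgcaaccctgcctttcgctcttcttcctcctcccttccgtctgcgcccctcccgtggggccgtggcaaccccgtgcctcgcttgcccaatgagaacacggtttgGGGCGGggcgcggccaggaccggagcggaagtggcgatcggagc
YWHAG: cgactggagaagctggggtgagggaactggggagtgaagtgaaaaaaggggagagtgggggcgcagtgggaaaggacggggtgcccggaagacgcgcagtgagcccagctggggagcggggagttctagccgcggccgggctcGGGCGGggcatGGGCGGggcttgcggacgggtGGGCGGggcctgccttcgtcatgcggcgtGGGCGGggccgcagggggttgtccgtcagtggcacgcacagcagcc
SFN: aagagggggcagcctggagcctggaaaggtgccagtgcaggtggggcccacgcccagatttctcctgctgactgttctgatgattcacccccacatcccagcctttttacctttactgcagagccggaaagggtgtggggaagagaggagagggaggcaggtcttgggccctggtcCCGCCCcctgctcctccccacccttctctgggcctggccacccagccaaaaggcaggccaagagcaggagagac

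The GC box was present in all 6 member promoters with a sequence here, both with a peak (YWHAB, 4 matches) and without one (YWHAG 4, YWHAQ 4, YWHAH 3, YWHAE 1 and SFN 1). No match to these letters overlapped another in the printed sequences. Among 15813 protein-coding promoters of the same length, 56.0% held at least 1 match, made up of 73.5% of the 3334 with an assigned promoter peak and 51.3% of the 12479 without. The GC content was 70.4% for YWHAB, against 71.2% for YWHAE, 71.6% for YWHAG and YWHAQ, 72.0% for YWHAH and 62.8% for SFN. The median was 68.8% for promoters with a peak and 60.8% for promoters without one. YWHAE, YWHAG, YWHAH and YWHAQ thus had GC-rich promoters above the median of promoters with a peak, and none had a peak. CpG dinucleotides numbered 21 in YWHAB, between 23 and 34 in those 4 genes, and 3 in SFN. A letter match is not a binding site, and the sequence that ZFP64 recognises was not derived here.

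YWHAZ had a peak at its own promoter and 5 more beyond its 3′ end. The gene lies on chromosome 8 from 100916523 to 100953382 in the RefSeq table and is transcribed from the high to the low coordinate. The values that follow are the fold, which is the authors' ratio of the ChIP signal over its background at a summit. They also include the number of ChIP fragments at the summit, recovered from the authors' fold and p-value with an exact Poisson 95% interval, and the background expected there from the input. The interval covers counting error only and takes the background as fixed.

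The promoter peak of YWHAZ ran from 100950776 to 100952880. Its fold was 10.3 (q-value 1.11e-20), and it held 27 ChIP fragments (17.8 to 39.3) over a background of 1.73. It was 2105 bp wide, and 97.8% of promoter peaks in the list were narrower. Its summit, at 100952645, lay 737 bp downstream of the RefSeq start and 516 bp upstream of the other annotated start that the authors' annotation used, which the peak overlapped. By fold it ranked 1471 of 4905 promoter peaks, where 69.9% were lower.

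The highest of the 6 peaks lay outside the promoter. It ran from 100908141 to 100908690, 7833 bp beyond the 3′ end of the gene, with a fold of 18.6 (q-value 8.64e-54) and 53 ChIP fragments (39.7 to 69.3) over a background of 1.90. It ranked 23 of 627 distal intergenic peaks, and 96.3% of that class had a lower fold. Only 652 bp separated it from the next peak, from 100909343 to 100909626, whose fold was 6.83 with 18 fragments (10.7 to 28.4) over 1.78. The summits of these neighbours were 1088 bp apart.

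The farthest peak, from 100847228 to 100847743, lay 68780 bp beyond the 3′ end. It had a fold of 11.0 and 28 fragments (18.6 to 40.5) over a background of 1.64, close to the promoter peak, and 87.1% of distal intergenic peaks were lower. The remaining peaks were weak. One from 100868838 to 100869119, 47404 bp beyond the gene, showed a fold of 3.90 (q-value 0.00316) and 10 fragments (4.80 to 18.4) over 1.82. The other, from 100915787 to 100916162 and only 361 bp past the 3′ end, showed a fold of 4.76 (q-value 9.47e-05) and 11 fragments (5.49 to 19.7) over 1.52.

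**Figure D1:**
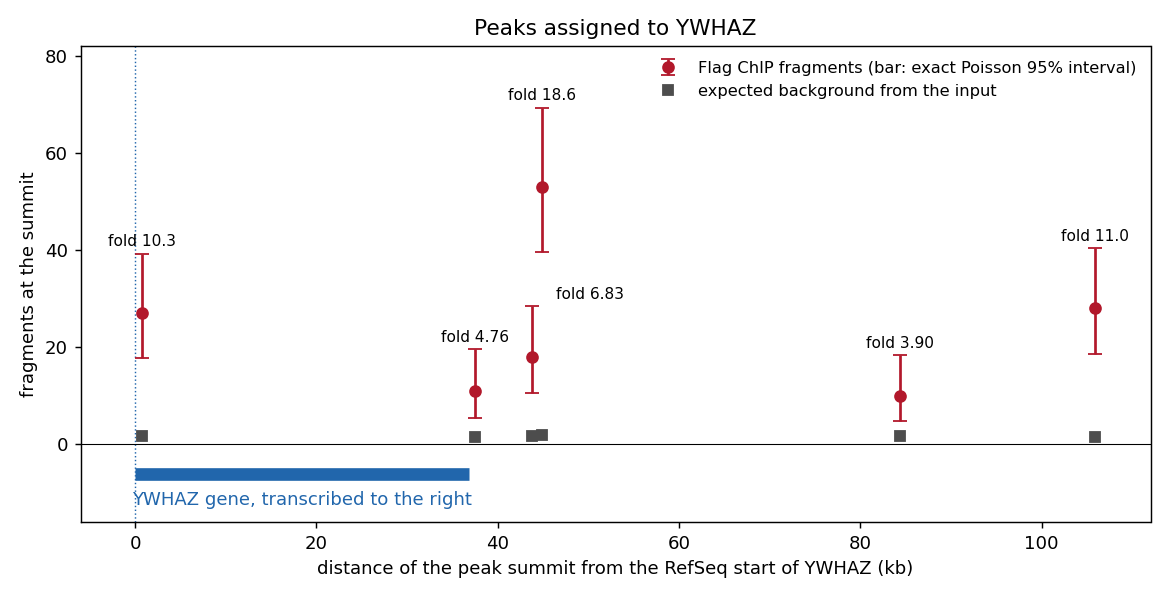
ChIP fragments (circles, with exact Poisson 95% intervals) and expected background (squares) at the summit of each YWHAZ peak, plotted against the distance from the RefSeq start in kb, with the gene drawn as a bar. The highest point, 53 fragments, and 4 further peaks lie past the end of the gene, and all backgrounds lie between 1.52 and 1.90.

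Ordered by ChIP fragments, the YWHAZ peaks ran 53, 28, 27, 18, 11 and 10. Neighbours in that order had overlapping counting intervals. The interval of the highest peak (39.7 to 69.3) overlapped that of the second (18.6 to 40.5) by less than 1 fragment and lay above those of the promoter peak and the 3 weaker ones. The 6 summits together held 147 fragments, of which the highest peak had 36.1%. Read as a cluster, the 5 peaks past the 3′ end spanned 68.9 kb and all 6 spanned 106 kb, of which the peaks themselves covered 4113 bp. The last peak before the promoter lay 34.6 kb from it, and no peak lay within the gene between them.

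At all of its peaks YWHAZ had a background, expected from the unreplicated input, below the median of the list. Its 6 peaks had backgrounds of 1.52 to 1.90 with a median of 1.76, against a median of 1.99 over all peaks (quartiles 1.64 to 2.62), 1.85 over the 257 peaks of chromosome 8 and a lowest value of 1.47. The median fold of the YWHAZ peaks was 8.54, and that of the 7 peaks of the family 6.83, beside 6.56 over all peaks. Of the 7 family peaks 3 had folds of 10 or more, as did 27.6% of the whole list.

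The surroundings of the cluster held no other peak for over 100 kb on either side. The next peak at a lower coordinate, 126 kb away, lay at the promoter of PABPC1, which encodes a poly(A)-binding protein (fold 4.38). The next at a higher coordinate, 173 kb away, was an intergenic peak assigned to the zinc finger gene ZNF706 (fold 6.01). Assignment to YWHAZ in this stretch therefore rests on the nearest annotated start, which for the 5 peaks past the 3′ end was that of a short transcript starting at 100924988, between 8826 and 77245 bp away.

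Such a number of peaks was rare in the list. Since the family was chosen by this number, the shares below partly restate that choice and are no test. Of 5246 genes with an assigned peak, 82.9% had exactly 1, and of 19974 protein-coding genes 0.02% had at least 6. They included YWHAZ, TNRC18 and BCOR. Counting instead all peaks within 100 kb of a gene, whatever their assignment, YWHAZ again had 6, and 2.34% of protein-coding genes had as many. With the run length and window set from YWHAZ itself, which therefore qualifies by construction, runs of 5 consecutive peaks outside promoters within 68.9 kb held 17 of 1468 such peaks. Besides the YWHAZ region they lay in a region of chromosome 1 assigned to the small nuclear RNA gene RNVU1-17, and in one of chromosome 16 around ZNF213, a zinc finger gene.

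The genes closest to YWHAZ in pattern were found among the 10 with at least 5 assigned peaks, by Euclidean distance over the numbers of promoter, intron and other peaks and the median log2 fold. They included RNVU1-17 (distance 1.04), HIVEP2 (4.58), SMAD6 (5.00) and TNRC18 (5.13). RNVU1-17 shared the intergenic layout, with 5 peaks at folds of 4.05 to 17.7 and none at a promoter. Its peaks lay 435821 to 497095 bp from its start, and their backgrounds reached 6.75, above the 1.90 reached at YWHAZ. In HIVEP2, which encodes a zinc finger factor, 3 of 5 peaks were at a promoter, and in TNRC18 4 of 6. In SMAD6, which encodes an inhibitory SMAD, 3 of 5 were in introns. YWHAZ and RNVU1-17 were the 2 genes of the list with at least 5 peaks outside promoters and introns. For YWHAZ, chosen by its number of peaks, this too is only a description.

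YWHAB, which encodes the beta isoform, an adaptor for many protein kinases, had a single weak peak. It ran on chromosome 20 from 44885762 to 44886049, with its summit 121 bp downstream of the RefSeq start, and began 57 bp after that start, just past the promoter sequence printed above. Its fold was 4.55 and its q-value 2.99e-05, with 14 ChIP fragments (7.65 to 23.5) over a background of 2.30. Among promoter peaks 16.4% had a lower fold, and at 288 bp it was wider than 7.25% of all peaks. The YWHAZ promoter peak, with 27 fragments (17.8 to 39.3), was higher, but the counting intervals of the pair overlapped. No other peak lay within 100 kb of YWHAB, and the nearest was 234 kb away at the promoter of ADA, which encodes adenosine deaminase.

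**Figure D2:**
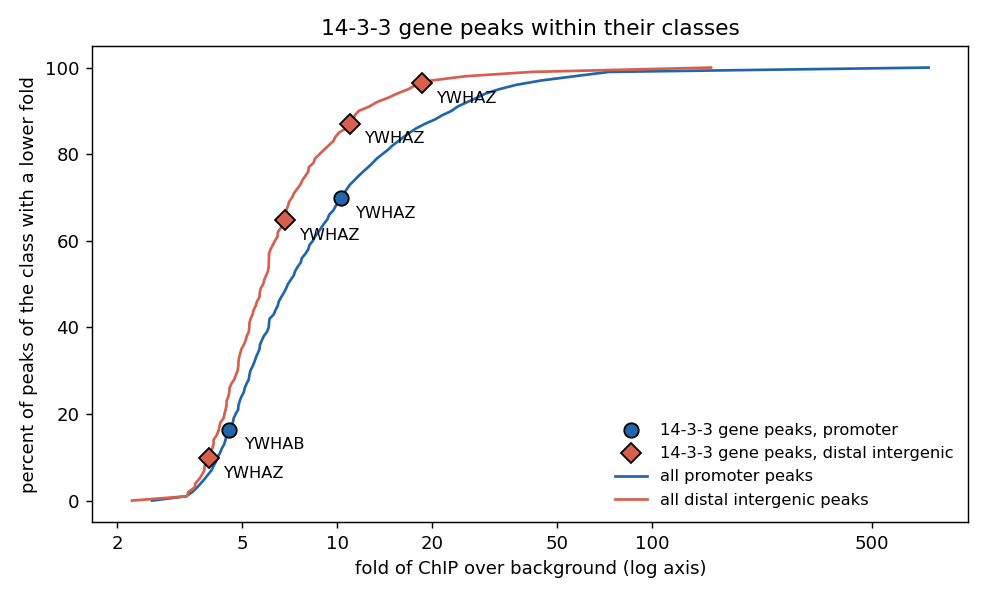
Percent of peaks of the same class with a lower fold, against the fold on a log axis, for all promoter peaks and all distal intergenic peaks (curves) and for the peaks of the 14-3-3 genes in those classes (points). The highest YWHAZ peak stands at 96.3% of its class and the YWHAB peak at 16.4% of its own. The YWHAZ peak just past the 3′ end is not drawn, since its class held only 27 peaks.

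A promoter peak was thus found at 2 of the 7 genes (28.6%, exact binomial 95% interval 3.67 to 71.0), beside 20.3% of protein-coding genes. The interval holds the background share. Any assigned peak was likewise found at 2 of 7, beside 23.4%. The YWHAZ promoter peak was also in the deposited selection of promoter peaks with a fold above 5, and the YWHAB peak, at 4.55, was not. A deposited sheet of gene identifiers has an unlabelled column of 85 genes, which held neither gene, and a longer unlabelled column, which held YWHAZ and not YWHAB.

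The 5 genes without an assigned peak differed in how near a peak came. SFN, the sigma isoform, spans 26863149 to 26864456 on chromosome 1, and its nearest peak lay 36.2 kb upstream of the start, at the promoter of the palmitoyltransferase gene ZDHHC18 (fold 4.14). For YWHAG, the gamma isoform, at 76326799 to 76358991 on chromosome 7, the nearest lay 40.1 kb downstream of the start. This peak, from 76318222 to 76318860, was 7939 bp beyond the 3′ end of YWHAG but was assigned to the small heat shock protein gene HSPB1, whose start was 14645 bp away. It had a fold of 10.3 and 27 fragments over 1.73, the same values as the YWHAZ promoter peak. Since fragments are whole numbers such ties occur, and 6 peaks of the list shared this fold.

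The YWHAG and YWHAZ loci therefore both had an intergenic peak about 8 kb past the 3′ end, with 27 fragments (17.8 to 39.3) at YWHAG and 53 (39.7 to 69.3) at YWHAZ, intervals that did not overlap. This pair was noticed after the values were seen, and the YWHAZ peak in it is the highest of those assigned to the gene. The share of all genes with a peak at such a distance was not counted.

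YWHAE, the epsilon isoform, spans 1344275 to 1400222 on chromosome 17 and lay in a region rich in peaks that were all assigned to other genes. Within 100 kb there were 7 peaks, 1 more than at YWHAZ, and 1.14% of protein-coding genes had as many. They were assigned to the myosin gene MYO1C (3, folds of 4.13 to 14.2), the adaptor gene CRK (2, 5.27 and 6.08), BHLHA9 (1, 20.3) and TRARG1 (1, 4.61). Apart from the TRARG1 peak, in a 3′ untranslated region, they were promoter peaks of those genes. The peak nearest to the YWHAE start, at CRK, began 55.2 kb upstream of it. Measured from the gene as a whole, the TRARG1 peak was nearest, 45.0 kb beyond its 3′ end. Many peaks nearby and none assigned to the gene is the reverse of the YWHAZ locus, where the 6 peaks nearby were all assigned to YWHAZ.

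YWHAQ and YWHAH had no peak within 100 kb, as did 38.7% of protein-coding genes. For YWHAQ, the theta isoform, at 9583967 to 9630997 on chromosome 2, the nearest lay 155 kb downstream of the start, at the promoter of IAH1 (fold 7.53). For YWHAH, the eta isoform, at 31944535 to 31957603 on chromosome 22, it lay 455 kb upstream, at the promoter of EIF4ENIF1 (fold 6.90), and 85.6% of genes had a nearer peak. The median distance from a RefSeq start to the nearest peak was 74.0 kb over the 15814 protein-coding genes with a start site. SFN, YWHAG and YWHAE were nearer than this median and YWHAQ and YWHAH farther.

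**Figure D3:**
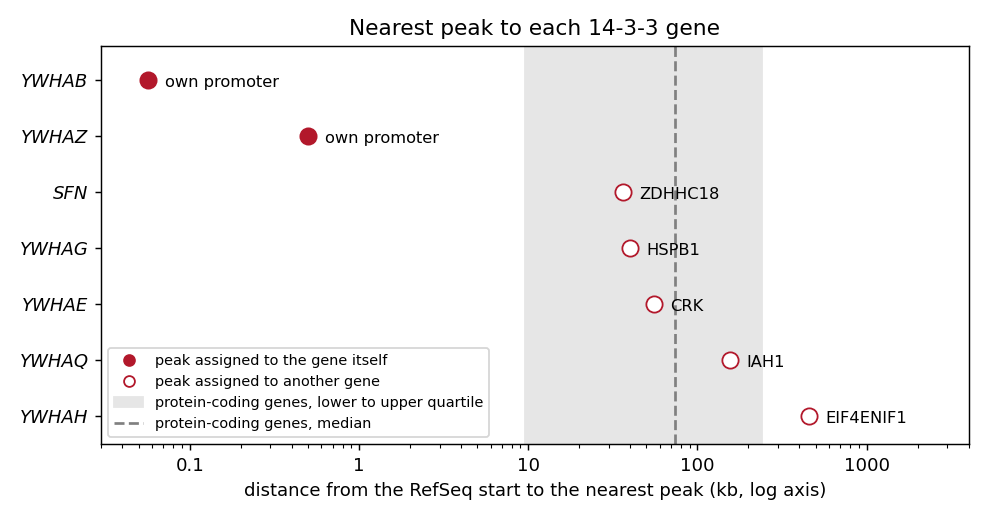
Distance in kb (log axis) from the RefSeq start of each 14-3-3 gene to the nearest peak, with the median and quartiles of protein-coding genes behind. YWHAB (57 bp) and YWHAZ (502 bp) have their own promoter peak, and the other 5 genes are 36.2 to 455 kb from a peak assigned to another gene.

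The 14-3-3 genes also have pseudogenes elsewhere in the genome. Of 29 in the RefSeq table on chromosomes 1 to 22 and X, 0 were overlapped by a peak, beside 0.595% of all 16458 pseudogenes, and 0 had one within 3 kb, beside 1.51%. At such low shares, a count of 0 among 29 does not set them apart.

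The partners of the family were looked up in a list of 52 genes whose proteins are known 14-3-3 clients, in 6 groups. This list and that of the kinases below were chosen with earlier results of these data known. Their shares are therefore a description and were not tested. A promoter peak was found at 19 of 52 (36.5%, exact binomial 95% interval 23.6 to 51.0), beside 20.3% of protein-coding genes. The median of the highest promoter fold was 8.10 over these 19 and 7.39 over all protein-coding genes with a promoter peak. By group, the count was 8 of 16 for transcription factors and coactivators, 4 of 8 for MAPK and GTPase signalling, 2 of 6 for polarity and cytoskeleton, 2 of 8 for cell cycle and p53, 2 of 10 for metabolism and mTOR, and 1 of 4 for apoptosis. A separate list of 15 kinases that phosphorylate 14-3-3 binding sites had 10 (66.7%, 38.4 to 88.2), and their median fold was 5.27. In all these shares a promoter peak counted only for the gene it was assigned to. The client gene BAD and the kinase gene PRKAA2 were therefore counted without one, although a peak overlapped the RefSeq start of each.

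Of the 8 clients with the highest promoter folds, 4 were transcriptional. HDAC7, a histone deacetylase kept in the cytoplasm by 14-3-3 binding, had a promoter fold of 57.1 with 153 fragments over a background of 1.70. CRTC3, a CREB coactivator under the same kind of control, had a fold of 22.8 with 89 fragments over 2.95. CTNNB1, which encodes beta-catenin, had a fold of 19.0, and YAP1, the Hippo pathway coactivator, one of 18.5 with 78 fragments over 3.28. Each of these peaks overlapped the RefSeq start of its gene, and their folds were above that of the YWHAZ promoter peak.

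Among the other clients, the autophagy kinase ULK1 had a promoter fold of 20.5, the RAS exchange factor SOS1 18.8, the cell cycle kinase WEE1 16.4 and the tyrosine kinase ABL1 8.81. WEE1 also had a peak outside its promoter, 26624 bp from its start, with a fold of 84.5, above the promoter fold of HDAC7. No promoter peak was assigned to 33 of the 52.

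**Figure D4:**
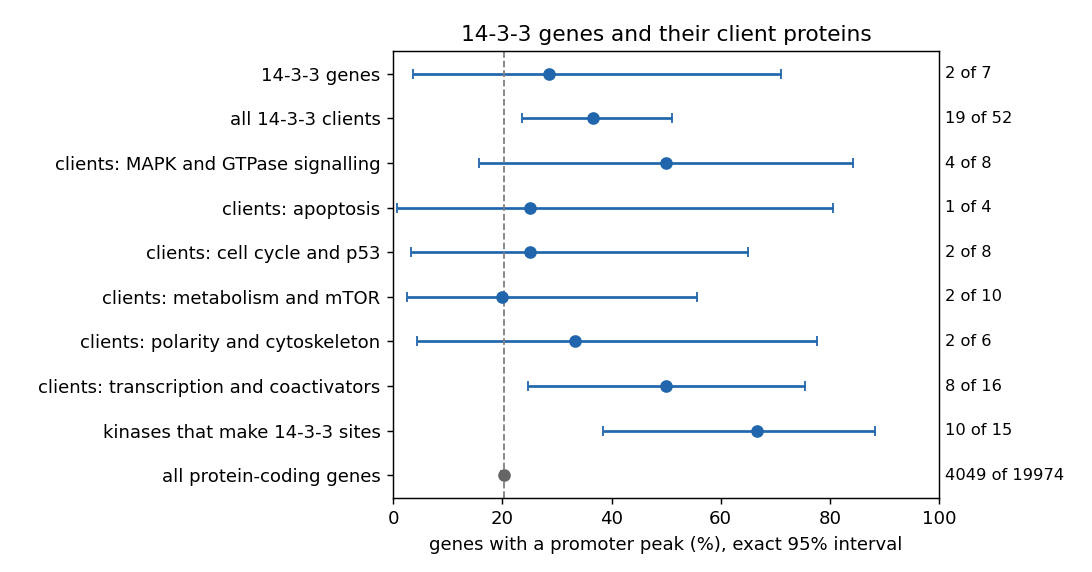
Percent of genes with a promoter peak, with exact binomial 95% intervals, for the 14-3-3 genes, their clients in all and by group, the kinases and all protein-coding genes (dashed line, 20.3%). The interval of the 7 family genes runs from 3.67 to 71.0%. Those of all clients, of the transcription group and of the kinases lie above the line. The lists were chosen with earlier results of these data known, so their place against the line is a description and not a test.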

How the data were processed

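Flag ChIP and input chromatin of PLC/PRF/5 cells were sequenced, 1 library each. Per the submitters' processing notes the build was hg38, and MACS2 2.2.7.1, Bowtie2 2.4.1, deepTools 3.5.0 and SAMtools were used, in roles that are not stated. The authors deposited an annotated narrow peak list with a fold (a ratio of ChIP over background), a p-value and a q-value per peak, which are theirs. Class, nearest gene and distance to a start are the deposited annotation, made with a tool not given in the sources used here. Promoter means within 3 kb of a start. Of the 5246 assigned genes 5231 matched the RefSeq table (GRCh38.p14) by identifier.

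Library totals were not used here. Depth was read from the peaks: the fragments and the background behind each deposited fold and p-value were found as the pair that returns both under a Poisson model (pseudocount 1). Whole fragments returned the −log10 p to within 0.001 for 6293 of the 6302 peaks whose p-value was not 0 (99.9%). This is an inference from that model. The solver was tested on simulated data. Intervals are exact at 95% (Poisson for fragments, Clopper-Pearson for shares). Start sites came from the RefSeq promoter table, except that of YWHAZ, taken from the gene table and the deposited strand. Python 3.11.15 with scipy 1.17.1 and pandas 2.3.3 was used.

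Named were all members with every peak, the 8 clients with the highest promoter fold, the 5 genes nearest YWHAZ in pattern, and neighbouring peaks. A result that this rule takes is left out here. Members and lists were chosen with earlier results of these data known. No promoter sequence of YWHAZ was used here.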

Additional observations from a re-analysis of the deposited data

How the results depend on the processing

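Of 33 alternatives over 9 results, 19 left the value within its interval or a count within 1.5 times, and 14 moved it. The interval of a median over the member peaks ran from the lowest to the highest of them. A median over any part of the same peaks therefore counted as unchanged in advance, and those entries do not measure stability. The median fold of the family peaks was 6.83 in the full list. It was 11.0 at a −log10 q of at least 10 and 10.6 at a fold of at least 5. Asking for a background above the lowest of the list removed no YWHAZ peak. Stricter thresholds keep fewer peaks. A −log10 q of at least 10 left 3 family peaks, all at YWHAZ, 1 gene with a promoter peak and 12 clients with one. It brought the share of genes with as many peaks as YWHAZ to 0.140%. A fold of at least 5 left 4 family peaks and 1 gene with a promoter peak, with a share of 0.0751%. In both cases YWHAB lost its peak. The share of all protein-coding genes with a promoter peak was not counted at these thresholds. The stricter counts of family genes and clients therefore cannot be set against the 20.3% of the full list. Counting only peaks in or within 3 kb of the RefSeq gene gave 3 family peaks, 2 of them at YWHAZ, whose highest fold was then 10.3, since the strongest peaks past the 3′ end lie farther out. Peaks within 100 kb of a member, chosen after seeing the data, numbered 17. Without the pseudocount the ratio was 27.8 at the highest YWHAZ peak and 15.6 at its promoter, by construction. No paired analysis was possible because the Flag ChIP and the input have a single library each. The peaks with a fold under 5 rest on few fragments (10 to 14).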
